A study of Mus musculus with 12 samples.

Results

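The subventricular zone (SVZ), a thin layer along the lateral ventricles of the mouse brain, was compared between control and Dpy30 knockout (KO) mice in 6 of the 12 RNA-seq libraries of the study. The members were the 3 control and the 3 KO columns of the SVZ table of FPKM values (fragments per kilobase of transcript, scaled by the authors to library size). The other 6 libraries came from the dentate gyrus (DG) of the same genotypes and enter only where a difference between the tissues was tested. Control mice had the genotype hGFAP/+;Dpy30F/+ and KO mice hGFAP/+;Dpy30F/-, so that both carried hGFAP and a floxed Dpy30 allele and the KO mice a second allele written as a minus in place of the wild-type one. The labels do not spell out what hGFAP drives. In hGFAP-Cre lines a human GFAP promoter drives Cre recombinase in radial glia, whose progeny include neurons, astrocytes and oligodendrocytes, so deletion in such lines is not limited to adult stem cells. The sources used here give neither ages nor the deleted exons. Each group's libraries take the letters a, b and c from the order of the columns, and the letters pair nothing. Whether each is a separate animal is not stated in the labels, so part of the spread that the p-values rest on may be technical.

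DPY30 is a small core subunit of the SET1/MLL complexes, which methylate lysine 4 of histone H3 at promoters and enhancers. In the adult SVZ, astrocyte-like neural stem cells give rise to dividing progenitors, to neuroblasts bound for the olfactory bulb and to oligodendrocyte precursors, which mature into cells that wrap axons in myelin. The layer lies against the striatum on one side and the ciliated ependyma and choroid plexus on the other, and white matter runs above it.

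The libraries held markers of several of these cells. The neuroblast gene Dcx was at 4.39 to 8.02 FPKM, the stem cell factor gene Sox2 at 17.3 to 26.2 FPKM and the astrocyte filament gene Gfap at 39.1 to 82.2 FPKM over the 6 libraries. The striatal gene Ppp1r1b was at 152 to 279 FPKM, and Slc17a7, the vesicular glutamate transporter gene of cortical neurons, at 385 to 595 FPKM, so mature neurons of the striatum and of glutamatergic regions were also present. The proliferation gene Mki67 was near the lower limit of the test, at 0.288 to 1.01 FPKM. Depth, in reads per FPKM over 1 kb of transcript, was 43.9, 36.9 and 45.9 in controls a, b and c and 34.01, 43.3 and 50.2 in the libraries labelled KO a, b and c, so the groups overlapped in depth. Control a held 26.9 FPKM of Xist and the other 5 libraries at most 0.205 FPKM, so sex cannot be told apart from that library. In bulk tissue, fewer cells of a type and less RNA per cell cannot be told apart.

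The targeted gene was not lower in every library labelled KO. Dpy30 (ENSMUSG00000024067.13) had levels of 7.73, 8.25 and 9.43 FPKM in the controls, 8.83 FPKM in the library labelled KO a, and 5.04 and 4.87 FPKM in KO libraries b and c. KO b and KO c lay below all controls, and the library labelled KO a lay inside the control range. The 2 annotated transcripts did not move by the same ratio. Dpy30-201, the main transcript, was at 6.72, 6.36 and 8.84 FPKM in the controls, 8.19 FPKM in the library labelled KO a, and 4.66 and 4.79 FPKM in KO libraries b and c, whose mean was 64.7% of the control mean. The minor Dpy30-202 had levels of 1.01, 1.88 and 0.591 FPKM in the controls, 0.639 FPKM in the library labelled KO a and 0.375 and 0.0795 FPKM in KO libraries b and c, whose mean was 19.6% of the control mean. Dpy30-202 of the library labelled KO a was within the control range as well. Summed over both transcripts, the mean of KO b and KO c was 58.5% of the control mean.

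**Figure D1:**
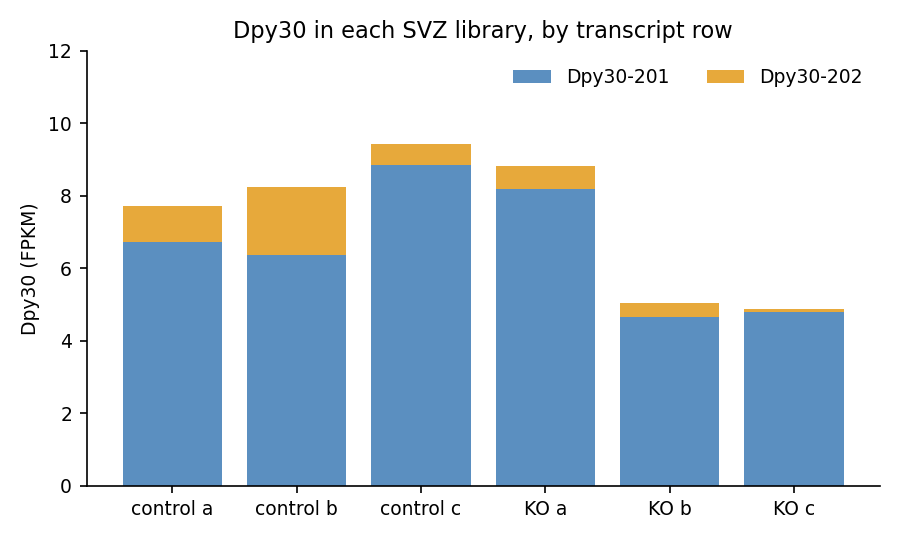
Dpy30 in FPKM for each of the 6 SVZ libraries, as stacked bars of the transcripts Dpy30-201 and Dpy30-202. The library labelled KO a, at 8.83 FPKM in all, stands among the controls (7.73 to 9.43 FPKM), while KO b and KO c stand at 5.04 and 4.87 FPKM.

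With all 6 libraries, Dpy30 had means of 8.47 ± 0.872 FPKM in control and 6.24 ± 2.24 FPKM in KO (SD, n = 3 each) and an exact two-sided permutation p of 0.3, where 3 against 3 libraries allow no p below 0.1. The authors' deposited table gave p-values of 0.145 for Dpy30-201 and 0.0628 for Dpy30-202. Leaving out the library labelled KO a, the difference of mean log2(FPKM + 1) was -0.67 (SE 0.12). That library was singled out for this very value, so the 5-library contrast of Dpy30 is a description. Other genes are tested over all 6 libraries and again over the 5 without it.

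Across all genes, the same library stood with the controls. The first principal component of log2(FPKM + 1) carried 56.3% of the variance and placed controls a, b and c at -25.0, -10.9 and -13.9, the library labelled KO a at -11.5, and KO b and KO c at 31.4 and 29.9. The second, with 18.7% of the variance, set control a apart at 24.3.

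**Figure D2:**
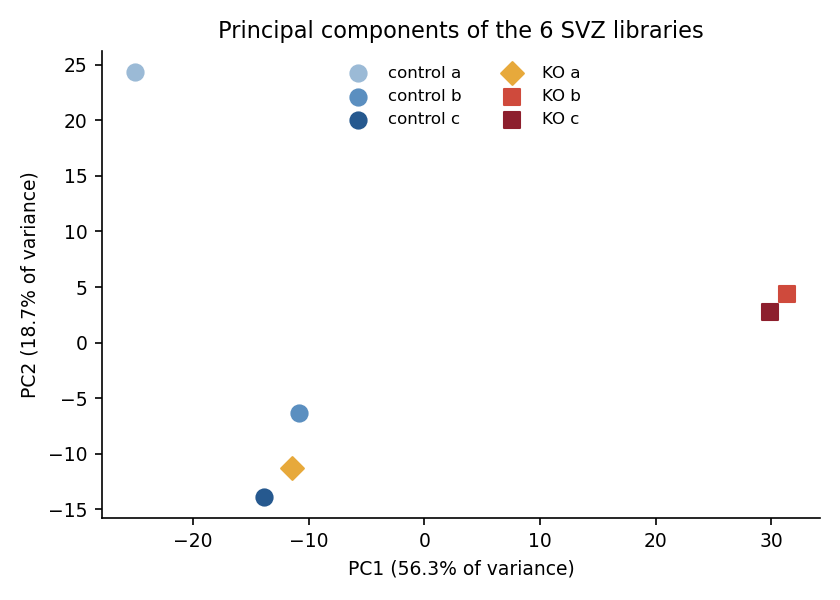
Scores of the 6 SVZ libraries on the first (56.3% of variance, horizontal) and second (18.7%, vertical) principal components of log2(FPKM + 1). KO b and KO c lie to the far right, the library labelled KO a lies with controls b and c, and control a lies apart at the top.

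Over all 6 libraries, 1 of 15149 tested genes (0.0066%) passed a Benjamini-Hochberg adjusted p of 0.05 in limma (the log2 change below is the KO minus the control mean of log2(FPKM + 1)), and 1915 genes (12.6%) had an unadjusted p under 0.05. The groups did not overlap in 2373 genes (15.7%), of which 1193 were higher in KO (7.88%) and 1180 lower (7.79%). Without the library labelled KO a, 1317 genes passed (8.69%), 638 of them higher (4.21%) and 679 lower (4.48%). Centring each library on its median gave 503 higher and 901 lower. The count fell to 641 without control c, to 103 without KO b and to 146 without KO c. In the latter pair of fits a single KO library remained, which is assumed to vary like the controls. Unless stated otherwise, "rose" and "fell" below refer to the fit without the library labelled KO a. Over all 6 libraries no member of the gene lists passed except the 5S copy described next. In the authors' deposited table, which compares single transcripts over all libraries, 4077 of 40483 transcripts had a p under 0.05 and 1 a step-up FDR under 0.05.

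The 1 gene called with all 6 libraries was n-R5s141, a copy of the 5S ribosomal RNA, the small RNA of the large ribosomal subunit that is made without a polyA tail. It was at 0.362, 0.501 and 0.219 FPKM in the controls, against 8.33, 8.61 and 12.8 FPKM in the libraries labelled KO a, b and c (log2 change 2.99, SE 0.18, limma adjusted p = 0.0016). All 3 libraries labelled KO lay above all controls, the library labelled KO a included. The SVZ table held 17 copies of 5S, all on chromosome 8 of GRCm38, and in the GENCODE transcripts all 17 share every one of the 119 bases of n-R5s141, so a read cannot be assigned to a single copy.

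Summed over the 17 copies, 5S was at 13.7, 30.9 and 80.9 FPKM in the controls, against 107.4, 107.1 and 231.0 FPKM in the libraries labelled KO a, b and c. The groups did not overlap, but control c came close to KO a and KO b. The summed 5S did not pass, at 2.05 on the log2 scale (SE 0.57, limma adjusted p = 0.37) over all 6 libraries and 2.23 (SE 0.67, limma adjusted p = 0.085) without the library labelled KO a. With the copies summed, limma called 0 genes over all 6 libraries, where 1919 genes reached an unadjusted p below 0.05. The list of RNAs without a polyA tail had 9 tested members, all positive, with a median of 1.39 over all 6 libraries. The members were the 5S copies n-R5s141, n-R5s149 and n-R5s111, Rn7sk, Rmrp, Rpph1, Rn7s1, Rn7s2 and Lars2. Lars2 is a protein-coding gene, the 5S copies are identical and Rn7s1 and Rn7s2 had nearly equal values. The 9 are therefore not separate RNAs without a tail. The 7SK RNA gene Rn7sk was at 11.2, 14.3 and 25.3 FPKM in the controls, against 35.0, 31.5 and 59.1 FPKM in the libraries labelled KO a, b and c, and Rmrp, the RNA of RNase MRP, at 0.919, 1.99 and 4.97 FPKM against 6.71, 6.71 and 12.5 FPKM. The libraries were made from polyA-selected RNA. The part of unequal polyA selection in the 5S values was not tested.

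Genes of myelinating oligodendrocytes had the lowest median of all lists in KO b and KO c. All 24 members of the list were tested. Without the library labelled KO a, 23 fell and none rose, where 4.48% of all tested genes fell. The median log2 change was -2.53, where the median of all 15149 genes was 0.06. Of the 45 genes that fell at least 5-fold, 18 were in this list. With all 6 libraries the median was -1.77, all 24 members were negative and none passed. The FPKM summed over the list was 6561, 3316 and 5827 in controls a, b and c, 4304 in the library labelled KO a, and 394.1 and 325.0 in KO b and KO c. The library labelled KO a lay inside the control range.

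The structural proteins of compact myelin led the list. Mbp, myelin basic protein, was at 2923, 1679 and 3105 FPKM in the controls, 2211 FPKM in the library labelled KO a, and 112 and 89.6 FPKM in KO libraries b and c. Control and KO b and c levels did not overlap, and their means differed 25.5-fold (log2 change -4.62, SE 0.28, limma adjusted p = 0.00133). Mobp, a basic protein of myelin, was at 663.9, 268.5 and 565.1 FPKM in the controls, 382.6 FPKM in the library labelled KO a and 10.6 and 9.39 FPKM in KO libraries b and c. Its 49.9-fold difference was the largest of the list (log2 change -5.41, SE 0.36, limma adjusted p = 0.00196). Over all 6 libraries Mobp did not pass (log2 change -3.70, SE 1.23, limma adjusted p = 0.37).

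The outer and adhesion proteins and the lipid enzymes of these cells were lower too. Mog, a protein of the outermost myelin lamella, was at 78.3, 40.3 and 69.6 FPKM in the controls, 57.1 FPKM in the library labelled KO a, and 3.81 and 2.09 FPKM in KO libraries b and c. Mag, the adhesion molecule that faces the axon, went from 122 to 153 FPKM in the controls and 121 FPKM in the library labelled KO a to 24.5 and 15.7 FPKM. Both fell, with log2 changes of -3.99 and -2.79 (SE 0.31 and 0.20, limma adjusted p = 0.00296 and 0.00243). Ugt8a, which makes the myelin lipid galactosylceramide, fell by 3.23 (SE 0.27, limma adjusted p = 0.00369), from 29.7 to 58.7 FPKM in the controls to 3.75 and 2.96 FPKM. Fa2h, the fatty acid hydroxylase of myelin lipids, fell by 2.74 (SE 0.27, limma adjusted p = 0.00452).

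Regulators of these cells fell too. Myrf, the transcription factor gene that drives myelin genes, was at 8.34 to 12.4 FPKM in the controls, against 5.68 and 3.90 FPKM in KO libraries b and c, and fell by 1.01 (SE 0.20, limma adjusted p = 0.0292). Nkx6-2, a homeobox gene of these cells, fell by 1.45 (SE 0.28, limma adjusted p = 0.0293). The member that did not pass was Qdpr, a dihydropteridine reductase gene, at 36.5 to 52.0 FPKM in the controls, against 39.6 and 39.1 FPKM in KO libraries b and c. Leaving out libraries moved the count of called myelin genes to 19 without control a, 16 without control c, 14 without KO b and 14 without KO c.

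**Figure D3:**
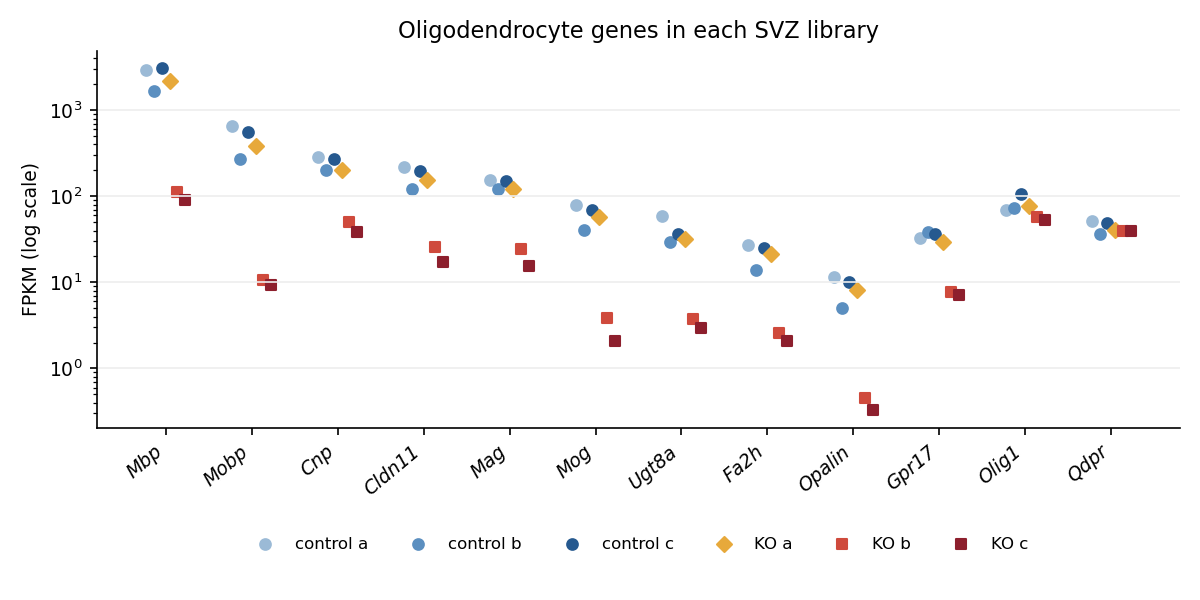
FPKM (log axis) of 12 genes of the oligodendrocyte lineage in each SVZ library, with circles for the 3 controls, a diamond for the library labelled KO a and squares for KO b and KO c. From Mbp to Gpr17 the squares lie below all other points, whereas for Qdpr they lie among the controls.

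Of 19 tested precursor genes, the earlier stage of the oligodendrocyte lineage, 2 fell and none rose, where 4.48% of all tested genes fell, and the median was -0.14 in both fits. Pdgfra, the growth factor receptor that marks precursors, was at 13.7, 15.1 and 14.4 FPKM in the controls, 10.7 FPKM in the library labelled KO a, and 16.0 and 14.2 FPKM in KO libraries b and c. Cspg4, the NG2 proteoglycan gene, was at 2.67 to 3.76 FPKM in the controls, against 4.004 and 3.55 FPKM in KO libraries b and c. Neither passed (log2 change 0.06 and 0.17, limma adjusted p = 0.735 and 0.48). The lineage factor genes Olig2 and Sox10 had log2 changes of -0.21 and -0.14 and did not pass (limma adjusted p = 0.459 and 0.698). The 2 that fell mark cells on the way to myelination. Gpr17, a receptor of committed precursors, was at 33.1, 38.0 and 36.5 FPKM in the controls, 29.8 FPKM in the library labelled KO a, and 7.72 and 7.10 FPKM in KO libraries b and c (log2 change -2.13, SE 0.11, limma adjusted p = 0.00116). Bcas1, a gene of newly formed oligodendrocytes, fell by 1.16 (SE 0.13, limma adjusted p = 0.00584). Both were below all controls in all 3 libraries labelled KO.

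Mobp, the myelin gene with the largest fall, has a promoter rich in CTTTGT, which reads as ACAAAG on the other strand. These letters lie at the core of the site that SOX factors such as SOX10 recognise. The promoter is shown with the matches in capitals, as the RefSeq window of 300 bases, 250 before the start and 50 after it, of build GRCm38.p6:
Mobp (chr9:120149492-120149791, plus strand): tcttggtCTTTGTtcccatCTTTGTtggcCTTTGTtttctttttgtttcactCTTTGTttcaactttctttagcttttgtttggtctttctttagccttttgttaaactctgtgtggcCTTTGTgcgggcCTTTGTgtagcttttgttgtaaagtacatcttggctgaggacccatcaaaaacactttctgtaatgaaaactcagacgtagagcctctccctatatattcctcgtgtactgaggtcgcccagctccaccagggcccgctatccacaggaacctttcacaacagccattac

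With both strands searched, the window holds 6 matches, and it was the only 1 of 27025 promoters, 1 a gene, with as many. At least 1 match was in 18.7% of all promoters and in 5 of the 16 promoters found for the myelin list (Cnp, Gjb1, Mag, Mobp and Opalin). A match describes letters and is not a bound site.

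Astrocyte genes were lower in KO b and KO c by a smaller amount. Of 22 tested members 10 fell and none rose, where 4.48% of all tested genes fell. The median was -0.59 (all 6 libraries, -0.50 and none called). Aldoc, the brain aldolase of astrocytes, was at 335, 273.5 and 430 FPKM in the controls, 288 FPKM in the library labelled KO a, and 97.5 and 107.5 FPKM in KO libraries b and c (log2 change -1.72, SE 0.19, limma adjusted p = 0.00584). In this gene the controls and KO b and c did not overlap, and the library labelled KO a lay inside the control range. The mean log2(FPKM + 1) of the whole list was below all controls in that library. Relative to the control mean it stood at -0.26, against -0.18 to 0.20 in the controls and -0.66 and -0.60 in KO b and KO c. Kcnj10, the potassium channel that buffers extracellular potassium, and Gjb6, connexin 30, fell by 1.00 (SE 0.11, limma adjusted p = 0.0062) and by 1.03 (SE 0.15, limma adjusted p = 0.0116). Other defining members did not pass. Aldh1l1 was at 18.1 to 23.1 FPKM in the controls and 20.9 and 19.5 FPKM in KO libraries b and c (limma adjusted p = 0.899), and Apoe had a log2 change of -0.12 (limma adjusted p = 0.731). Gfap, at 51.1 to 82.2 FPKM in the controls, was at 40.05 and 39.1 FPKM and did not pass (limma adjusted p = 0.0859). The count of called astrocyte genes was 6 without control c, 0 without KO b and 1 without KO c.

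Mt2, a metal-binding metallothionein, was close to constant in the controls, at 66.1, 65.7 and 65.0 FPKM. The library labelled KO a held 37.6 FPKM, against 20.4 and 23.4 FPKM in KO libraries b and c. All 3 libraries labelled KO lay below all controls, KO b and KO c the furthest. Without the library labelled KO a it fell by 1.54 (SE 0.10, limma adjusted p = 0.00197), and with all 6 libraries its log2 change was -1.29 (SE 0.20, limma adjusted p = 0.37). Of the related Mt1 and Mt3, neither passed without the library labelled KO a (log2 change -0.42 and -0.69, limma adjusted p = 0.127 and 0.0512).

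Of 22 tested microglia and macrophage genes, 10 fell and none rose, where 4.48% of all tested genes fell. The median was -0.62 (all 6 libraries, -0.55 and none called). P2ry12, a purine receptor of resting microglia, was at 33.6, 29.1 and 33.4 FPKM in the controls, 25.3 FPKM in the library labelled KO a, and 14.1 and 13.1 FPKM in KO libraries b and c. Each library labelled KO was below each control (without the library labelled KO a, log2 change -1.17, SE 0.11, limma adjusted p = 0.00435). The related receptor gene P2ry13 fell by 1.13 (SE 0.12, limma adjusted p = 0.00555) and the receptor gene Gpr34 by 1.12 (SE 0.16, limma adjusted p = 0.0116). The complement gene C1qa was at 29.8 to 45.6 FPKM in the controls and 30.7 and 30.3 FPKM in KO libraries b and c, and Trem2 at 8.65 to 15.9 FPKM and 8.14 and 8.59 FPKM, and neither passed (limma adjusted p = 0.398 and 0.378). The count called was 14 without control b, 7 without control a, 5 without control c, 2 without KO b and 1 without KO c. Of 23 endothelial and pericyte genes 3 fell (Itm2a, Vtn and Acta2), with a median of -0.28 (all 6 libraries, -0.29), and of 7 blood genes none passed.

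Of 24 tested genes of neural and quiescent astrocyte-like stem cells, 6 fell and none rose, where 4.48% of all tested genes fell. The median was -0.26 (all 6 libraries, -0.22). Prom1, a surface protein of stem and ependymal cells, was at 6.57, 4.14 and 4.93 FPKM in the controls, 2.88 FPKM in the library labelled KO a, and 1.16 and 1.25 FPKM in KO libraries b and c (log2 change -1.48, SE 0.17, limma adjusted p = 0.0067). Pax6, a transcription factor gene of SVZ progenitors, was at 2.88, 2.96 and 3.38 FPKM in the controls, against 1.67, 1.62 and 1.10 FPKM in the libraries labelled KO a, b and c (without the library labelled KO a, log2 change -0.80, SE 0.14, limma adjusted p = 0.02). For both genes all 3 libraries labelled KO lay below all controls. Thbs4, Id4, Slc1a3 and Hopx also fell, by 1.16, 1.31, 0.98 and 0.86 (limma adjusted p = 0.0228, 0.0378, 0.0109 and 0.0278). Sox2 and the intermediate filament genes Nes and Vim did not pass, with log2 changes of -0.30, -0.11 and -0.01 (limma adjusted p = 0.235, 0.552 and 0.987). Slc1a3 is also expressed by astrocytes and is in both lists, as are Sox9 and Fgfr3. Stem cells and astrocytes cannot be told apart by this list in bulk tissue, and 10 of 22 astrocyte genes fell. The count called was 0 without KO b and 1 without KO c.

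Among 24 neuroblast and immature neuron genes 4 fell and none rose, where 4.48% of all tested genes fell. The median was -0.20 in both fits. Dlx6os1, a noncoding RNA gene at the Dlx5 and Dlx6 locus, was at 5.04, 3.85 and 5.22 FPKM in the controls and 2.67, 2.05 and 1.91 FPKM in the libraries labelled KO a, b and c, all below the controls (without the library labelled KO a, log2 change -0.93, SE 0.14, limma adjusted p = 0.0144). Whether the counting used strand is not stated, so its reads cannot be told apart from those of the overlapping Dlx genes. Cd24a, Stmn1 and Meis2 fell by 1.47, 0.79 and 0.91 (limma adjusted p = 0.0309, 0.0308 and 0.0167). Dlx5 itself did not pass (log2 change -0.13, limma adjusted p = 0.762). Dcx, the standard neuroblast marker, was at 4.89, 8.02 and 5.24 FPKM in the controls, 4.57 FPKM in the library labelled KO a, and 5.08 and 4.39 FPKM in KO libraries b and c, overlapping the controls (limma adjusted p = 0.408). The count called was 2 without control c and 0 without KO b or without KO c.

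**Figure D4:**
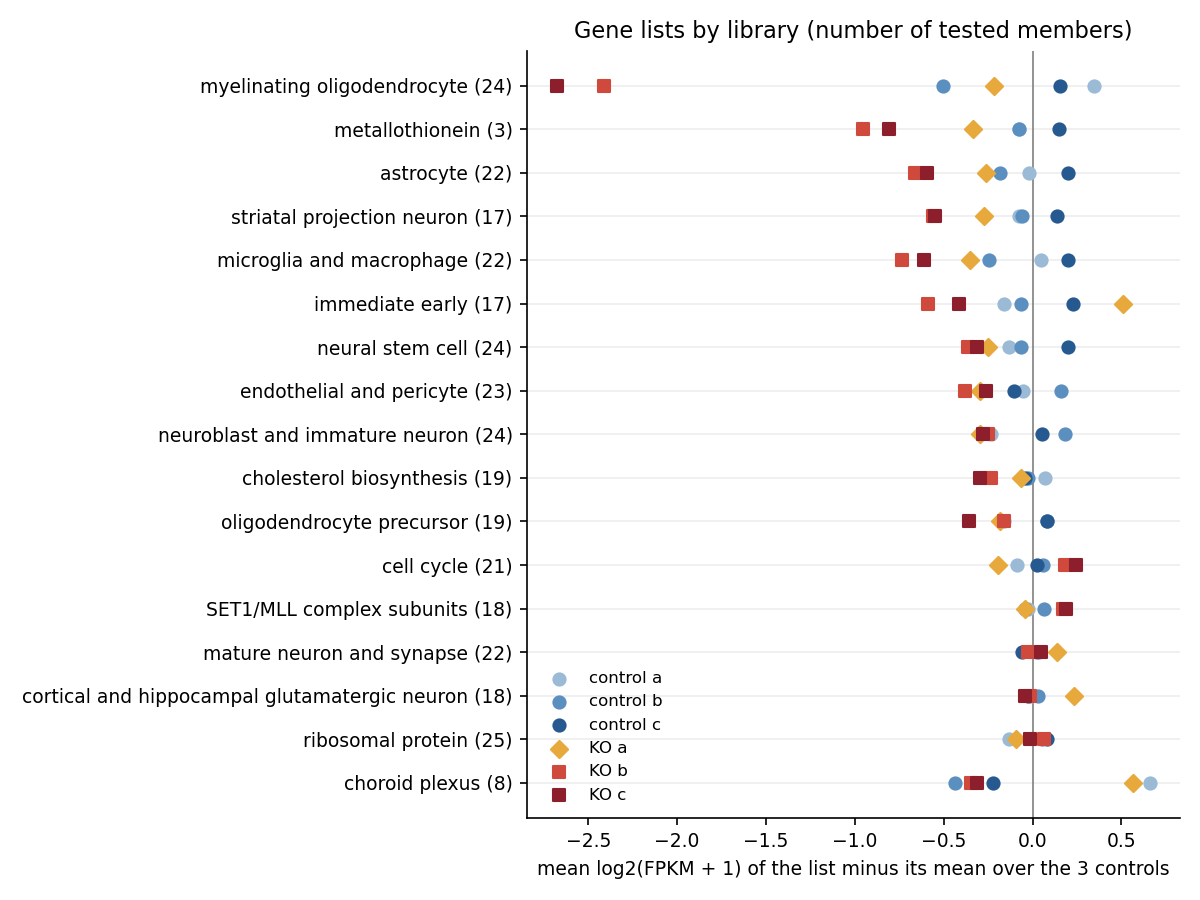
Mean log2(FPKM + 1) of each gene list in each SVZ library, as the difference from its mean over the 3 controls, with the number of tested members in brackets; circles are controls, diamonds the library labelled KO a and squares KO b and KO c. The myelin list of KO b and KO c stands at -2.41 and -2.68, far from every other list. The library labelled KO a is within the control range for the myelin list. It is above that range for the immediate early, mature neuron and glutamatergic neuron lists. It is below the range for the astrocyte, microglia, striatal, stem cell, neuroblast, endothelial and metallothionein lists, among others.

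Genes of dividing cells are given beside all tested genes, of which 4.21% rose and 4.48% fell. Of 14 tested genes of activated stem cells and transit amplifying cells, Fos and Ccnd2 fell and none rose, with a median of -0.03 (all 6 libraries, -0.12). Fos is also in the immediate early list. Ccnd2, a D-type cyclin gene, was at 14.4, 16.6 and 14.5 FPKM in the controls, 12.2 FPKM in the library labelled KO a, and 7.66 and 9.73 FPKM in KO libraries b and c, so that each library labelled KO was below each control. Its log2 change was -0.74 (without the library labelled KO a, SE 0.13, limma adjusted p = 0.0227), and the call was lost without control b, control c, KO b or KO c. Of 21 tested cell cycle genes 1 rose (Mcm6, a subunit of the replicative helicase) and none fell, and 19 were positive, with a median of 0.20 (all 6 libraries, 0.07). The low levels of these genes limit the test. Mki67 was at 0.486, 0.783 and 0.618 FPKM in the controls, 0.288 FPKM in the library labelled KO a, and 0.952 and 1.01 FPKM in KO libraries b and c, and did not pass (limma adjusted p = 0.165). The library labelled KO a was below all controls and KO b and KO c were above them. Mcm6 was at 1.84, 1.86 and 2.01 FPKM in the controls, 1.51 FPKM in the library labelled KO a, and 3.01 and 5.003 FPKM in KO libraries b and c (log2 change 0.76, SE 0.18, limma adjusted p = 0.0454), and its call was lost when any 1 of the 5 libraries was left out.

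Of 18 tested inhibitors of the cell cycle and p53 targets, 2 rose and none fell, where 4.21% of all tested genes rose. Cdkn1a, which encodes p21, was at 10.5, 13.4 and 10.01 FPKM in the controls, 7.65 FPKM in the library labelled KO a, and 33.7 and 26.3 FPKM in KO libraries b and c (log2 change 1.33, SE 0.16, limma adjusted p = 0.0076). Cdkn1c, which encodes p57, was at 3.02, 3.37 and 4.05 FPKM in the controls, 3.20 FPKM in the library labelled KO a, and 13.8 and 7.70 FPKM in KO libraries b and c (log2 change 1.35, SE 0.23, limma adjusted p = 0.0194). In both, KO b and KO c lay above all other libraries. Neither passed without KO b, and Cdkn1c also failed without control c. Trp53 itself had a log2 change of 0.19 (limma adjusted p = 0.296).

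The other subunits of the SET1/MLL complexes were measured beside Dpy30. Of the 17 tested besides Dpy30, none fell and Setd1b, a catalytic subunit of SET1, rose, from 2.69, 3.27 and 3.50 FPKM in the controls and 3.80 FPKM in the library labelled KO a to 5.13 and 5.08 FPKM in KO libraries b and c (log2 change 0.56, SE 0.13, limma adjusted p = 0.0418). This call was lost without control b, control c, KO b or KO c, and with no minimum on the FPKM. The median of the 17 was 0.28 (all 6 libraries, 0.15) and 16 were positive. Over all 15149 tested genes 4.21% rose, the median was 0.06 and 6306 were negative. Ash2l, the subunit that binds DPY30, was at 15.1 to 16.6 FPKM in the controls, against 16.4 and 16.5 FPKM in KO libraries b and c. The catalytic subunit genes Setd1a, Kmt2a and Kmt2d had log2 changes of 0.38, 0.02 and 0.32 and did not pass (limma adjusted p = 0.0671, 0.926 and 0.109). Of 5 H3K4 demethylase genes none passed.

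Striatal projection neuron genes were mostly lower, with 9 lower and 1 higher of 17 tested, where 4.48% of all tested genes fell and 4.21% rose. The median was -0.70 (all 6 libraries, -0.55 and none called). Adora2a, the adenosine receptor of indirect pathway neurons, was at 24.6, 24.9 and 34.1 FPKM in the controls, 21.9 FPKM in the library labelled KO a, and 9.76 and 9.97 FPKM in KO libraries b and c (log2 change -1.39, SE 0.16, limma adjusted p = 0.00594). All 3 libraries labelled KO were below the controls. The dopamine receptor genes Drd1 and Drd2 fell by 0.80 and 0.70 (limma adjusted p = 0.0194 and 0.0257). Penk and Ppp1r1b did not pass (limma adjusted p = 0.758 and 0.367). The member that rose was Pdyn, the opioid peptide gene of direct pathway neurons, at 10.7, 14.3 and 16.5 FPKM in the controls, 12.2 FPKM in the library labelled KO a, and 35.5 and 32.4 FPKM in KO libraries b and c (log2 change 1.25, SE 0.18, limma adjusted p = 0.0115). The count of lower calls was 4 without control c, 0 without KO b and 2 without KO c.

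Of 22 mature neuron genes 3 were called, where 8.69% of all tested genes were. The synapsin genes Syn1 and Syn2 rose by 0.52 and 0.79 (limma adjusted p = 0.0297 and 0.0106), and Nefm, the medium neurofilament of axons, fell from 67.9 to 97.8 FPKM in the controls to 29.2 and 37.0 FPKM (log2 change -1.29, SE 0.18, limma adjusted p = 0.0109). The median was 0.07. Of 18 glutamatergic neuron genes, Neurod2 and Nptx1 rose and none fell. Neurod2, a transcription factor gene of cortical neurons, was at 13.1, 15.9 and 13.8 FPKM in the controls and 20.3, 32.6 and 29.8 FPKM in the libraries labelled KO a, b and c, all above the controls (without the library labelled KO a, log2 change 1.08, SE 0.12, limma adjusted p = 0.00578). Slc17a7 was at 385 to 470 FPKM in the controls, 595 FPKM in the library labelled KO a, and 539 and 523 FPKM in KO libraries b and c, also above the controls, and did not pass (log2 change 0.28, limma adjusted p = 0.246). Of 15 interneuron genes, Sst, Npy and Th rose and Crh fell. Of 12 GABA-A receptor subunit genes, Gabra3, Gabrg3 and Gabrd fell and none rose.

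Immediate early genes, which neurons switch on with activity, set the library labelled KO a apart from both groups. Without that library 6 of 17 tested fell and 1 rose, where 4.48% of all tested genes fell and 4.21% rose. The median was -0.60, whereas with all 6 libraries it was -0.16. Fos was at 11.8, 10.4 and 12.4 FPKM in the controls, 17.5 FPKM in the library labelled KO a, and 3.03 and 4.91 FPKM in KO libraries b and c (without the library labelled KO a, log2 change -1.36, SE 0.18, limma adjusted p = 0.0091). The library labelled KO a was the highest and KO b and KO c the lowest, and Egr1, Egr2, Arc, Nr4a1 and Npas4 had this order too. Npas4, a neuronal activity factor, fell by 1.20 (SE 0.12, limma adjusted p = 0.00452). Jun had another order, at 11.3, 12.6 and 13.4 FPKM in the controls and 15.3, 23.2 and 24.7 FPKM in the libraries labelled KO a, b and c, and rose by 0.90 (SE 0.11, limma adjusted p = 0.00811). Over all 6 libraries the median of the list turned to 0.04 without control c and to 0.05 without KO b.

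Among the named genes that rose and averaged at least 5 FPKM over the 5 libraries, Tmem40, a transmembrane protein gene, had the highest log2 change. It was at 1.14, 0.692 and 1.23 FPKM in the controls, 2.15 FPKM in the library labelled KO a, and 14.7 and 13.4 FPKM in KO libraries b and c (log2 change 2.91, SE 0.15, limma adjusted p = 0.00116). All 3 libraries labelled KO were above the controls, KO b and KO c by far. Nptx2, a secreted protein of excitatory synapses, was at 33.0, 24.0 and 26.3 FPKM in the controls, 31.7 FPKM in the library labelled KO a, and 104.5 and 82.0 FPKM in KO libraries b and c, a 3.36-fold rise (log2 change 1.71, SE 0.17, limma adjusted p = 0.00452). Chga, chromogranin A of secretory granules, rose 2.62-fold (log2 change 1.39, SE 0.16, limma adjusted p = 0.00687). The others in this group were Blnk, Dmkn, Tagln, Phospho1, Rasl10a, Wfs1, Pgam2 and Krt9, with log2 changes of 1.27 to 2.01, beside the 5S copies n-R5s139 and n-R5s149 and the cell cycle inhibitors given above.

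Of the 638 genes that rose, 57 were under 0.5 FPKM in all 3 controls, and 49 of the 57 were also under 0.5 FPKM in the library labelled KO a. The genes named here were chosen after their values were seen. Chrna1, a subunit of the muscle acetylcholine receptor, was at 0.0774, 0.0923 and 0.0892 FPKM in the controls, 0.0602 FPKM in the library labelled KO a, and 4.96 and 4.35 FPKM in KO libraries b and c. The 4 low libraries were each close to the level of a few reads, so no fold is given. Atp2c2, a calcium and manganese pump gene of epithelia, was at 0.148 to 0.243 FPKM in the controls, compared with 6.37 and 4.65 FPKM in KO libraries b and c. Adgrf4 and Des, also under 0.5 FPKM in all controls, had the same order of libraries, with KO b and KO c above all others. So did Krt73, Pnmt, Ret and S100a3, each of which was above 0.5 FPKM in at least 1 control. Several of these are known from skin or muscle, and defining genes of those tissues were compared, none of which was at 0 in every library. The FPKM summed over 5 epidermal genes was 10.7, 14.8 and 14.7 in the controls, against 12.4, 14.2 and 14.8 in the libraries labelled KO a, b and c. Summed over 5 muscle genes it was 3.80, 2.89 and 3.85, against 3.84, 2.78 and 2.52. Both sums of KO b and KO c overlapped or lay below the controls, although 2 of the 5 genes of each list were above all controls in KO b and KO c. A single gene made up most of each sum, so the sums tell little of the other members. In KO b and KO c, Krt10 was at 8.59 and 9.25 FPKM and Acta1 at 2.26 and 2.08 FPKM. Whether skin or muscle was in the samples was not tested. The keratin gene Krt1 was 1 of the genes above all controls, at 2.39 and 2.22 FPKM against 0.565 to 1.19 FPKM.

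**Figure D5:**
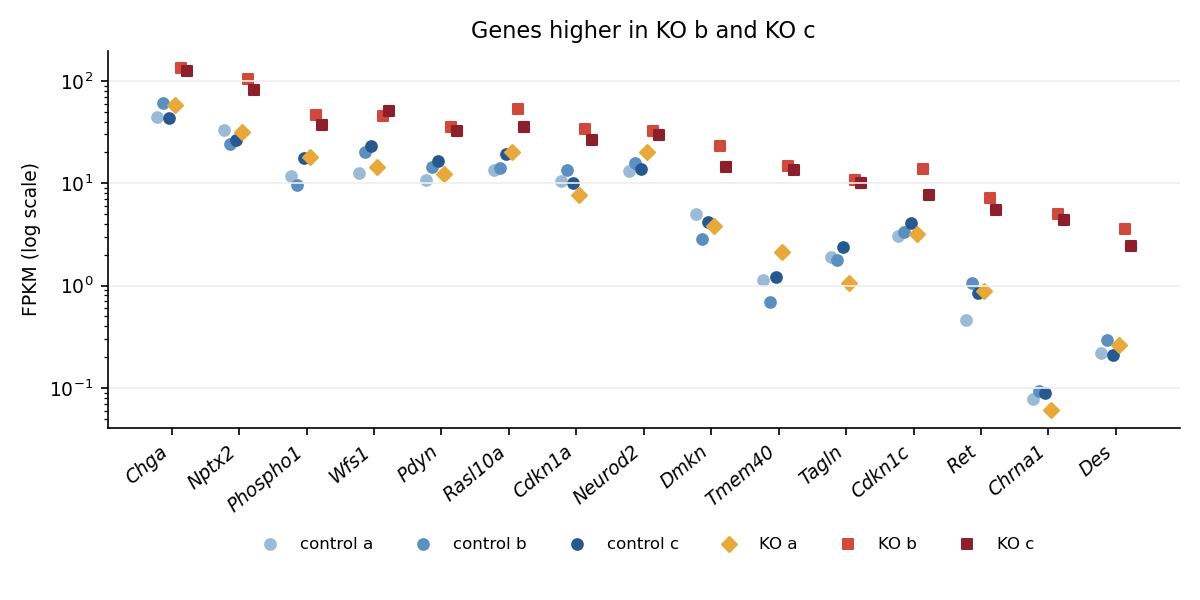
FPKM (log axis) of 15 genes that rose in KO b and KO c, in each SVZ library, with circles for controls, a diamond for the library labelled KO a and squares for KO b and KO c. The squares lie above all other points for each gene, from Chga (133.9 and 124.3 FPKM) down to Des. The place of the diamond against the controls varies: it lies above all of them for Tmem40 and Neurod2 and below them for Cdkn1a and Chrna1.

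Without KO b the myelin, precursor, microglial and metallothionein lists and the RNAs without a polyA tail still held a call, and no other list did. The main product of the choroid plexus, transthyretin (Ttr), followed single libraries. Ttr was at 118 FPKM in control a and 154 FPKM in the library labelled KO a, and at 0.963 to 7.24 FPKM in the other 4. Of 8 tested choroid plexus genes, Car12 rose and Enpp2, which is also in the myelin list, fell (limma adjusted p = 0.0129 and 0.0152). Of all tested genes 8.69% were called. Car12 was at 1.04 to 2.92 FPKM in the controls, 1.69 FPKM in the library labelled KO a, and 8.66 and 7.81 FPKM in KO libraries b and c. The ependymal factor gene Foxj1 was at 2.31 to 5.39 FPKM in the controls and 2.44, 3.02 and 2.38 FPKM in the libraries labelled KO a, b and c, and 2 of 16 ependymal genes fell (Ccdc153 and Spag6l). Of 19 cholesterol synthesis genes 5 fell, among them Hmgcs1, Idi1, Lss and Cyp51, none rose and the median was -0.27 (all 6 libraries, -0.20). Of 17 genes of retinoid metabolism and signalling 4 rose (Crabp2, Rdh5, Stra6 and Rara) and 3 fell (Rarb, Rarg and Rxrg), so the receptor genes went in both directions. Rarb was at 6.98 to 7.87 FPKM in the controls, 5.27 FPKM in the library labelled KO a, and 3.32 and 3.15 FPKM in KO libraries b and c. None of 16 Notch, 21 oxidative phosphorylation, 25 ribosomal protein, 22 mitochondrial ribosomal protein, 13 heat shock and 10 histone genes passed.

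Whether a KO effect differed between the SVZ and the DG was tested as an interaction over 14891 genes. With all 12 libraries 15 genes passed (0.101%), and without the library labelled KO a 64 did (0.43%). Of 22 myelin genes in this test none passed in either fit, where the lowest limma adjusted p was 0.171 and 0.0635. Not passing does not show equal effects in both tissues. For Mobp without that library, the SE of the difference was 1.19, against 0.36 for the SVZ change alone. The log2 change of Mobp without that library was -5.41 in the SVZ and -3.66 in the DG, a difference of -1.74 (SE 1.19, limma adjusted p = 0.462), and Gpr17 had -2.13 and -1.94 (difference -0.19, SE 0.21, limma adjusted p = 0.662). Cdkn1a was at 1.33 in the SVZ and -0.09 in the DG (difference 1.42, SE 0.20, limma adjusted p = 0.0337), and Tmem40 at 2.91 and 0.00 (difference 2.91, SE 0.27, limma adjusted p = 0.00374). The macrophage genes Mrc1 and Fcrls differed as well. Fcrls, a microglial receptor gene, had -0.97 in the SVZ and 0.61 in the DG (difference -1.58, SE 0.28, limma adjusted p = 0.0437). The tissues were normalized in separate tables, so the test compares effects and not levels.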

How the data were processed

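RNA of SVZ tissue was selected for polyA and sequenced, per the labels' protocols, and the submitters' processing notes name CASAVA 1.8.4, TopHat2 2.1.0, Partek and GRCm38 (mm10), without roles or settings. The deposited tables held the authors' FPKM of 40483 transcripts in 6 columns, scaled by TMM according to the table names, and, in a second table, the authors' own p-value, step-up FDR and fold change per transcript. Rows were joined by gene name and group means (relative difference within 0.0001; 64 rows matched several transcripts of a gene, and 87 rows had a date in place of a name) and summed to 17973 gene names. Of the per-sample columns, 0 went unused. Reads were not recovered: low FPKM values gave the depth of each library, and only 55.2% to 61.7% of them lay within 0.1 of a whole read.

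Tested were 15149 genes whose 6-library mean reached 0.5 FPKM, on log2(FPKM + 1), KO minus control, by limma 3.58.1 (R 4.3.3) through lmFit and eBayes with an intensity trend, Benjamini-Hochberg over all of them at 0.05. Log2 changes understate those of low genes, and folds are ratios of mean FPKM. The script was tested on simulated data. Members and gene lists were chosen with earlier results of these data known. Named genes were Dpy30; genes called with all 6 libraries; the 10 higher and 10 lower of lowest p with all 6 among genes whose groups do not overlap; without the library labelled KO a, the 15 of largest change in each direction among called genes averaging 5 FPKM or more over the other 5, and 10 each way with that library on the same side; and members needed to describe each list. Some genes these rules choose are not reported here. Alternatives varied the pseudocount, the minimum, scaling, trend, library weights and libraries. FPKM values shift with the other RNA in a library.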

Additional observations from a re-analysis of the deposited data

Results flagged for a closer look

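The following genes had KO effects that differed between the SVZ and the DG (limma interaction, adjusted over 14891 genes), given as the log2 change in the SVZ minus that in the DG. With all 12 libraries the differences were -1.13 for the macrophage mannose receptor gene Mrc1 and 3.24 for the 5S copy n-R5s141. Without the library labelled KO a they were 1.42 for Cdkn1a, 1.44 for Chga, 1.37 for the desmin gene Des, -1.58 for Fcrls, 1.86 for Ifitm10, -1.19 for Mrc1, 2.1 for the receptor tyrosine kinase gene Ret, 1.57 for the Nogo receptor family gene Rtn4rl1, 1.55 for S100a3, 1.32 for Sbsn, -1.08 for the stathmin gene Stmn1, 2.91 for Tmem40 and 3.34 for n-R5s141. The value of n-R5s141 carries the limit of the 17 identical 5S copies.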

How the results depend on the processing

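With all 6 libraries the count of called genes was 1. It was 2387 with library weights (1192 higher and 1195 lower; the weight was 0.275 for the library labelled KO a and 4.18 for KO c), 1317 without the library labelled KO a, and 0 with the 5S copies summed, which was chosen after seeing the data. Leaving out single libraries gave 0 (without control a) to 1317, with 2 without KO b. Without the library labelled KO a the count was 1317, and 207 (89 higher and 118 lower) with each transcript tested alone, 964 at a minimum mean of 2 FPKM and 1532 with no minimum. Leaving out a further library gave 103 to 1368. Of 159 genes named as called, 143 were tested under every alternative fitted by gene and 29 of these kept the call in each, 12 of them myelin genes. The other 16 were below the 2 FPKM minimum, and 5 kept the call in the alternatives that tested them. Calls were lost mostly without KO b (121) or KO c (107), where 1 KO library remains. The direction of each of the 159 held throughout, which says little because they were chosen as called in this same fit. Dpy30 over all 6 libraries was at -0.65 with library weights and -0.67 without the library labelled KO a, against -0.42, and ranged from -0.67 to -0.29 as single libraries were left out. The weights were estimated from these same data and were lowest for the library labelled KO a, so the weighted value is a description too. Without that library Dpy30 ranged from -0.72 to -0.59 as single libraries were left out, given as a description because the library was singled out for its Dpy30. The SVZ and DG difference had 15 calls, and 64 without the library labelled KO a, a setting also added after seeing the data. The immediate early median of -0.16 turned to 0.04 without control c and 0.05 without KO b, in a range from -0.60 over the libraries left out. The cause of these changes was not tested.

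No paired analysis was possible because the table columns name a group and carry no replicate numbers. Depth limits genes near 0.5 FPKM, which rest on few reads in transcripts of 1 kb.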

Other observations

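Some genes that no list holds also changed in KO b and KO c, with the library labelled KO a left out. Gsn, which encodes the actin-severing protein gelsolin, was at 55.3, 41.4 and 52.95 FPKM in the controls, 42.2 FPKM in the library labelled KO a, and 8.14 and 4.45 FPKM in KO libraries b and c (log2 change -2.84, SE 0.23, limma adjusted p = 0.00361). Grin2c, a subunit gene of the NMDA receptor that was chosen after its values were seen, was at 9.72, 10.5 and 14.9 FPKM in the controls, 10.7 FPKM in the library labelled KO a, and 1.53 and 2.05 FPKM in KO libraries b and c (log2 change -2.17, SE 0.19, limma adjusted p = 0.00402). In both genes KO b and KO c lay below all other libraries. Scd1, which desaturates fatty acids, and Slc39a12, a zinc transporter gene, fell by 1.46 (SE 0.17, limma adjusted p = 0.0069) and 1.49 (SE 0.12, limma adjusted p = 0.00323), and for both the library labelled KO a was also below all controls.

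Over all 6 libraries, the genes named for low p, chosen among those whose groups do not overlap, did not pass except n-R5s141. Among them Man1a2, a mannosidase gene of the Golgi, was at 17.7, 14.3 and 14.6 FPKM in the controls and 8.58, 8.33 and 8.66 FPKM in the libraries labelled KO a, b and c (limma adjusted p = 0.37). In this gene the library labelled KO a was level with KO b and KO c, unlike its Dpy30 and its myelin genes.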
